A study of Mus musculus with 16 samples.

Results

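Complement C1q is described here through its 3 chain genes, *C1qa*, *C1qb* and *C1qc*, which were taken by name from a table of 734 genes of myeloid innate immunity. All 3 were measured in every mouse. C1q is the recognition molecule of the classical complement pathway: its A, B and C chains, the products of these genes, assemble into a molecule with collagen-like stalks and globular heads. The heads bind antibody in immune complexes and molecules exposed on dying cells, and the stalks carry the proteases that cleave the next complement components. Most complement proteins come from the liver, whereas C1q is made mainly by macrophages and dendritic cells, tissue macrophages of the spleen among them, and it also promotes the clearance of apoptotic cells.

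The study asked how erythropoietin (EPO), a hormone of red cell production, acts on myeloid cells in an alloimmune response that is treated with CTLA4-Ig, a fusion protein that blocks CD28 costimulation of T cells. The mRNA of CD11b+ splenocytes from 16 wild-type C57BL/6 mice was read with a NanoString nCounter panel, which counts labelled mRNA molecules without amplification. Ages were not given in the sources used here.

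The 4 groups held 4 mice each. Naive mice received nothing. Allo mice received 20000000 splenocytes from BALB/c mice, a strain with a different MHC, which the labels describe as depleted of T cells. CTLA4-Ig mice received the same cells and 150 µg of CTLA4-Ig (abatacept) i.p. on day 2. CTLA4-Ig/EPO mice received epoetin alfa, a recombinant EPO, in addition (5000 U/kg i.p. every day). Spleens were taken on day 7, and no group received EPO without CTLA4-Ig. The cell injection is i.p. in the labels and i.v. in the study's results, the letter codes for naive and allo mice are exchanged between a protocol label and the sample names, and the samples are grouped here by name and treatment. CD11b+ cells were isolated by positive selection with magnetic beads, a step that keeps monocytes, macrophages, neutrophils and other CD11b+ cells together, so each value is an average over a mixed population. The study's results describe the cells as lacking CD11c as well, which the labels and the isolation step do not, so whether dendritic cells were excluded is not settled here. Recovered totals lay between 562760 and 912328 counts per mouse, and the chains had between 500 counts (*C1qa*, a naive mouse) and 14085 counts (*C1qc*, a CTLA4-Ig/EPO mouse).

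*Itgam*, which encodes CD11b itself, was read in every mouse, at 11.42 ± 0.15 in naive, 8.85 ± 0.28 in allo, 9.23 ± 0.12 in CTLA4-Ig and 9.56 ± 0.29 in CTLA4-Ig/EPO mice (mean log2 level ± SD, n = 4). From naive to allo mice it fell by 2.57 (SE 0.16, limma adjusted p = 2.31e-09) on the authors' scale and by 1.48 with total scaling. A bulk level does not show which share of the cells carried CD11b, and the markers of other cells differed between groups. The 11 measured neutrophil genes of a list of 13, led by *S100a9*, held 35.7% ± 9.87 of all counts in naive mice, 3.94% ± 2.06 in allo, 3.65% ± 1.02 in CTLA4-Ig and 12.1% ± 3.40 in CTLA4-Ig/EPO mice (mean ± SD, n = 4). The 10 measured genes of a list of 18 resident macrophage genes, led by *Vcam1*, held 0.922% ± 0.177, 1.57% ± 0.134, 1.44% ± 0.0297 and 4.43% ± 0.748 in the same order of groups. B cell, T cell and dendritic cell genes held larger shares in allo than in naive mice: 0.489% against 0.0844% for the B cell gene *Ms4a1*, 0.212% against 0.0468% for 3 T cell genes and 1.09% against 0.230% for 7 dendritic cell genes. Of these, 1 of 1, 3 of 3 and 5 of 7 were called higher, and 1 dendritic cell gene lower (5 to 6 higher and 0 to 1 lower over the scalings), beside 87 of all 734 genes on the authors' scale and 334 with total scaling. The 3 NK cell genes, at 1.21% against 0.827%, had 0 higher and 2 lower on the authors' scale. They had 1 higher and 0 lower with total scaling, and 3 higher and 0 lower with limma-voom on the recovered counts. Of all 734 genes, 429 were lower on the authors' scale and 132 with total scaling. With limma-voom 339 were higher and 137 lower.

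*C1qa*, the gene of the A chain, read 9.96, 9.69, 9.70 and 9.89 in naive mice 1 to 4 and 9.89, 9.63, 9.86 and 10.17 in allo mice 1 to 4 (log2 levels on the authors' normalized scale). It read 9.44, 9.55, 9.90 and 9.70 in CTLA4-Ig mice and 11.41, 11.31, 12.13 and 11.78 in CTLA4-Ig/EPO mice. The naive, allo and CTLA4-Ig ranges overlapped, and every CTLA4-Ig/EPO mouse lay above every mouse of the other groups, with CTLA4-Ig/EPO mouse 3 highest. *C1qb*, the gene of the B chain, read 10.55, 10.31, 10.19 and 10.52 in naive mice and 10.52, 10.29, 10.33 and 10.54 in allo mice. It read 10.15, 10.16, 10.26 and 10.17 in CTLA4-Ig mice and 11.93, 11.95, 12.41 and 12.13 in CTLA4-Ig/EPO mice. CTLA4-Ig mice were low and close together, all of them under the lowest allo mouse and 3 of the 4 under the lowest naive mouse, and CTLA4-Ig/EPO mouse 3 was again highest. *C1qc*, the gene of the C chain, read 10.87, 10.67, 10.53 and 10.94 in naive mice and 10.92, 10.61, 10.77 and 10.99 in allo mice. It read 10.54, 10.61, 10.80 and 10.58 in CTLA4-Ig mice and 12.47, 12.35, 12.95 and 12.61 in CTLA4-Ig/EPO mice. The pattern was that of the A chain, with overlap among the lower 3 groups and none with the CTLA4-Ig/EPO mice.

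**Figure D1:**
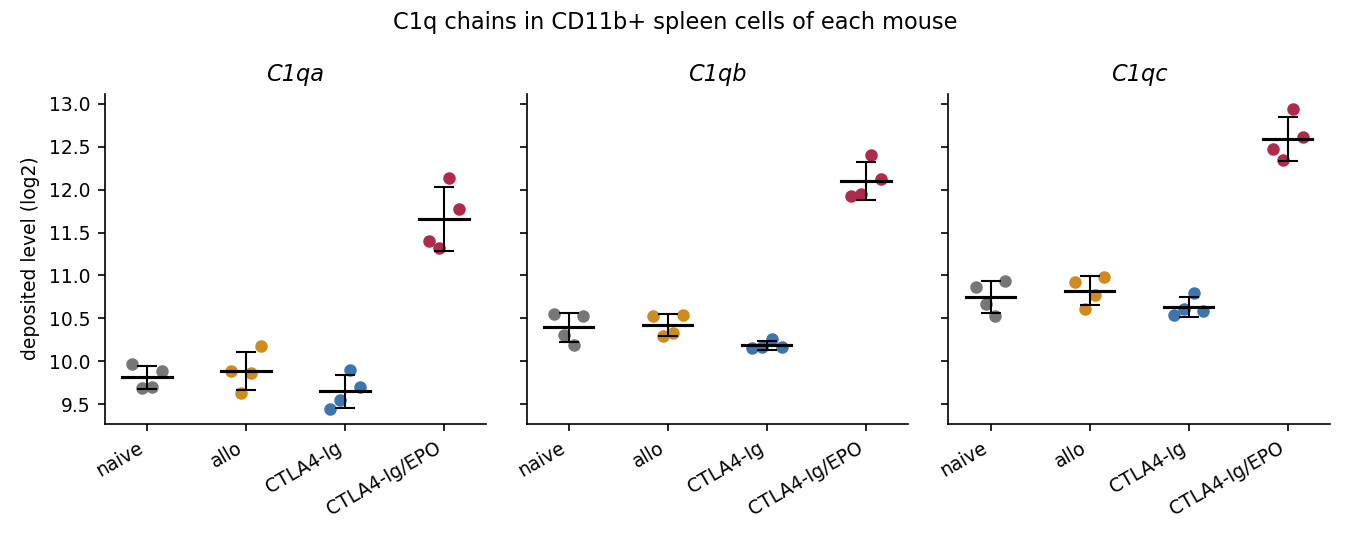
Level of each C1q chain (log2, authors' scale) in every mouse, by group; points are mice, horizontal lines group means and bars SD (n = 4 per group). The CTLA4-Ig/EPO mice sit between 11.31 and 12.13 for *C1qa*, between 11.93 and 12.41 for *C1qb* and between 12.35 and 12.95 for *C1qc*, above all other mice.

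For each chain the group means stood in the same order on the authors' scale, CTLA4-Ig lowest, then naive, allo and CTLA4-Ig/EPO. *C1qa* averaged 9.65 ± 0.20, 9.81 ± 0.14, 9.89 ± 0.22 and 11.66 ± 0.37 in that order of groups (log2, mean ± SD, n = 4). *C1qb* averaged 10.19 ± 0.05, 10.39 ± 0.17, 10.42 ± 0.13 and 12.10 ± 0.22, and *C1qc* 10.63 ± 0.11, 10.75 ± 0.19, 10.82 ± 0.17 and 12.59 ± 0.26. The spread between mice was largest in CTLA4-Ig/EPO mice for each chain.

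As a share of all recovered counts, which does not use the authors' factor for each mouse, the 3 chains together made up 0.357% ± 0.0578 in naive, 0.784% ± 0.0906 in allo, 0.677% ± 0.0473 in CTLA4-Ig and 2.88% ± 0.717 in CTLA4-Ig/EPO mice (mean ± SD, n = 4). On this measure naive mice came lowest, below every mouse given allogeneic cells. The naive total, however, held the large neutrophil share given above, and the part of that share in the order of the groups was not tested.

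Allo against naive mice addresses the effect of the injected allogeneic cells. The chains differed by less than the spread between mice on the authors' scale: *C1qa* by 0.08 (SE 0.17, adjusted p = 0.698), *C1qb* by 0.03 (SE 0.12, adjusted p = 0.836) and *C1qc* by 0.07 (SE 0.14, adjusted p = 0.642; log2, limma with Benjamini-Hochberg adjustment over 734 genes). None of the 3 was called at an adjusted p below 0.05, whereas 70.3% of all genes were, 87 higher and 429 lower. The median gene differed by -0.65 on this scale, on which the authors' factor was 1.27 to 1.85 for a naive mouse and 0.56 to 0.79 for any other mouse.

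The call on the chains depended on the scaling. With each mouse centred on its median gene, the median difference was 0.08, the calls were 242 higher and 196 lower, and *C1qa*, *C1qb* and *C1qc* were called at 0.81, 0.76 and 0.80 (adjusted p = 0.00208, 0.000187 and 0.000441). With quantile normalization the chains differed by 0.92, 0.92 and 0.94 and the median gene by 0.15. With counts scaled to the total of each mouse the chains differed by 1.16, 1.11 and 1.16 and the median gene by 0.44, with 334 genes higher and 132 lower. Measured from the median gene, the chains stood higher in allo mice by 0.73, 0.68 and 0.72 on the authors' scale, and by the same amounts under median centring and total scaling. The part of the shift in B cell, T cell, NK cell, dendritic cell and neutrophil markers between these groups was not tested. In bulk samples such as these, fewer cells of a type and less RNA per cell cannot be told apart.

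**Figure D2:**
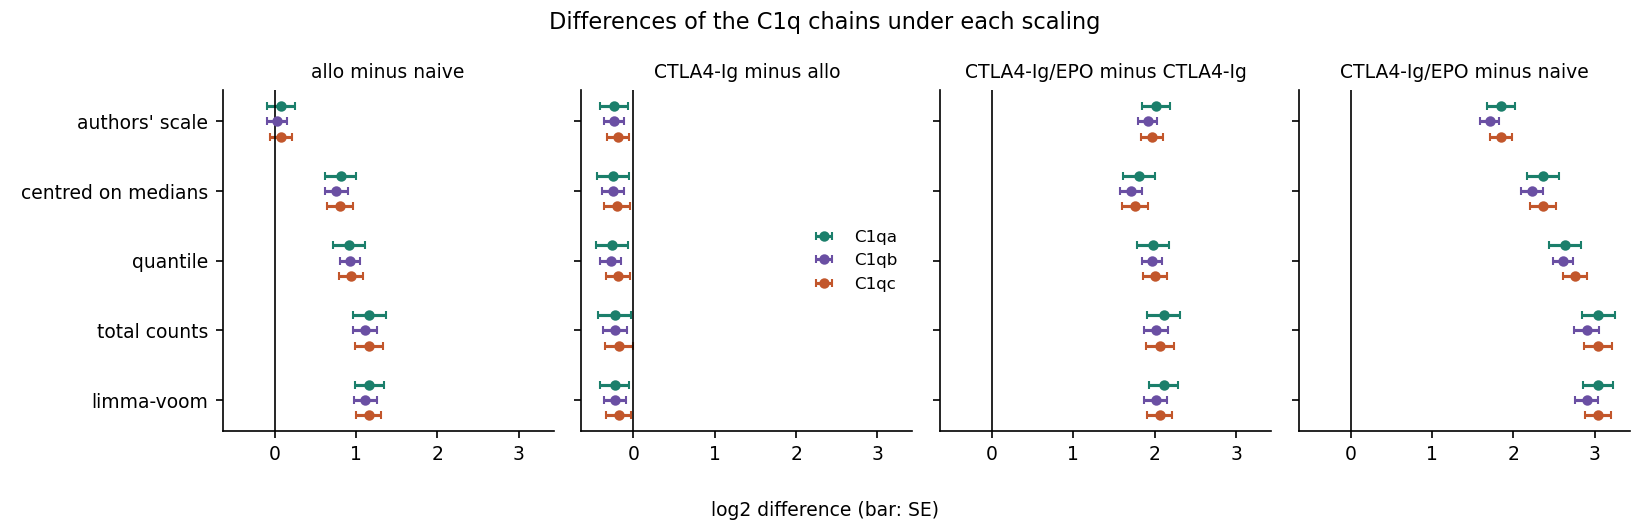
Difference of each C1q chain between groups (log2, points, with SE bars) in 4 comparisons and under 5 ways of scaling the mice. In allo against naive mice the differences run from 0.03 to 0.08 on the authors' scale and from 0.76 to 1.16 under the others; between CTLA4-Ig/EPO and CTLA4-Ig mice they stay between 1.71 and 2.11.

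CTLA4-Ig against allo mice addresses the costimulation blockade. *C1qa* was lower by a difference of -0.24 (95% interval -0.61 to 0.13, adjusted p = 0.802), *C1qb* by -0.24 (-0.49 to 0.02, adjusted p = 0.599) and *C1qc* by -0.19 (-0.49 to 0.10, adjusted p = 0.802; log2, limma, n = 4 per group). None of the 3 passed the threshold and neither did any other gene: limma called 0 of 734 (0%), with 70 at an unadjusted p below 0.05, and limma-voom on the recovered counts also called 0. The direction was the same for the chains under every scaling. *C1qb* was the chain of which the groups did not overlap, its highest CTLA4-Ig mouse at 10.26 and its lowest allo mouse at 10.29, which was so for 7.36% of all genes.

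CTLA4-Ig/EPO against CTLA4-Ig mice addresses the addition of EPO, and here the chains rose about equally. *C1qa* was higher by 2.01 (SE 0.17, adjusted p = 2.3e-07), a 4.03-fold difference. *C1qb* was higher by 1.91 (SE 0.12, adjusted p = 1.25e-08), or 3.77-fold. *C1qc* was higher by 1.96 (SE 0.14, adjusted p = 2.54e-08), or 3.90-fold (log2 differences, limma, n = 4 per group). All 3 passed the threshold, as did 51.1% of all genes, and all 3 were higher, as were 22.8% of all genes with 167 higher and 208 lower. Each chain was higher in 4 of 4 CTLA4-Ig/EPO mice than in any CTLA4-Ig mouse, a separation in this direction that 21.3% of all genes showed. Median centring changed the balance of calls to 126 higher and 276 lower (total scaling, 184 and 146) and moved the median gene from -0.07 to -0.28; the chains remained called, at 1.81, 1.71 and 1.76.

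The chains were among the larger increases without being the largest. Of 734 genes, 31 had a larger difference than *C1qa*, 36 a larger one than *C1qb* and 33 a larger one than *C1qc*. By adjusted p, 8 genes came before *C1qb*, 21 before *C1qc* and 35 before *C1qa*, the chain with the widest spread between CTLA4-Ig/EPO mice.

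CTLA4-Ig/EPO against naive mice sets the full treatment beside the unchallenged spleen, and it shares its CTLA4-Ig/EPO mice with the comparison above. *C1qa* was higher by 1.85 (SE 0.17, adjusted p = 2.52e-07), *C1qb* by 1.71 (SE 0.12, adjusted p = 1.05e-08) and *C1qc* by 1.84 (SE 0.14, adjusted p = 2.25e-08; log2, limma). All 3 were called, with 70.8% of all genes, and higher, with 9.13% of all genes, since 67 were higher and 453 lower. Every CTLA4-Ig/EPO mouse was above every naive mouse for each chain, which held for 8.58% of genes. The median gene differed by -0.74 on this scale, -0.22 after median centring and 0.46 with total scaling, under which 168 and 340 genes were higher and 249 and 90 lower; the chains were called under each, by up to 3.04 (*C1qa*) with total scaling. Only 13 genes had a larger difference than *C1qa* on the authors' scale, 17 than *C1qb* and 14 than *C1qc*.

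The chains also varied together among mice of the same group. Over the 16 mice, deviations from the group mean correlated with r = 0.873 between *C1qa* and *C1qb*, 0.912 between *C1qa* and *C1qc* and 0.961 between *C1qb* and *C1qc*. The points of such a correlation share the mouse, the RNA and the scaling factor, and after each mouse's median deviation over all genes was removed, r was 0.927, 0.943 and 0.977. Allo mouse 4 and CTLA4-Ig mouse 3, for example, were the highest of their groups for all 3 chains.

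Whether the chains changed by different amounts was asked within each mouse, where the scaling factor cancels. The level of *C1qb* minus that of *C1qc*, which has no meaning in itself because they are read by different probes, was -0.36 ± 0.04 in naive, -0.40 ± 0.06 in allo, -0.45 ± 0.06 in CTLA4-Ig and -0.49 ± 0.07 in CTLA4-Ig/EPO mice (log2, mean ± SD, n = 4). Its change from naive to CTLA4-Ig/EPO mice, -0.14, had the lowest p of 12 such tests (exact permutation test, two-sided, p = 0.0571, adjusted p = 0.686). *C1qa* minus *C1qb* was -0.58 ± 0.07, -0.53 ± 0.14, -0.54 ± 0.15 and -0.44 ± 0.16 in the same order of groups, and *C1qa* minus *C1qc* -0.94 ± 0.10, -0.93 ± 0.10, -0.98 ± 0.11 and -0.94 ± 0.13. With EPO added to CTLA4-Ig these differences moved by 0.09 (*C1qa* minus *C1qb*), 0.05 (*C1qa* minus *C1qc*) and -0.05 (*C1qb* minus *C1qc*), within their spread between unpaired mice. With equally numbered mice paired, *C1qa* minus *C1qc* was higher in 4 of 4 pairs (exact sign-flip p = 0.125, the lowest that 4 pairs allow). The smallest p that 4 mice against 4 allow is 0.0286.

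The 3 genes lie side by side on mouse chromosome 4, in the order *C1qb*, *C1qc*, *C1qa*, with 0 other genes between them in the RefSeq annotation of GRCm38.p6. Promoter sequences are shown because the chains moved together. RefSeq windows from 250 bases before to 50 bases after the transcription start were matched for 2 of the 3 chains, *C1qb* (chr4:136886151-136886450, minus strand) and *C1qc* (chr4:136892865-136893164, minus strand), and are printed 5′ to 3′ along the gene, with matches to either of 2 motifs searched on both strands in capitals.
C1qb: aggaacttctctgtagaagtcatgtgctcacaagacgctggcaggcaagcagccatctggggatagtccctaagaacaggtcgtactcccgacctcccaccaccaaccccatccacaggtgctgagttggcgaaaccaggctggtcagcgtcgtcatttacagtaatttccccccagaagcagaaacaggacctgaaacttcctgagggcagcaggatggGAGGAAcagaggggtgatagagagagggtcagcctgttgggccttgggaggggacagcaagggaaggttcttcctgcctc
C1qc: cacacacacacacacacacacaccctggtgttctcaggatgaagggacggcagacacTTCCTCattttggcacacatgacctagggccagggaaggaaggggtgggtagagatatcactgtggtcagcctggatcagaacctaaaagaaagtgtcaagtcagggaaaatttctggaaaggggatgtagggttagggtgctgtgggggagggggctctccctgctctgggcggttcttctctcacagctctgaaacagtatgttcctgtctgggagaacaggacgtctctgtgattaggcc
GAGGAA, a core bound by ETS factors such as PU.1, occurred 1 time in each, from position -30 of *C1qb* and, on the opposite strand, from position -193 of *C1qc*, and was held by 28.3% of 32851 promoter windows of this length. TGACTCA, the AP-1 site, occurred in neither and was held by 5.2%. A match is a run of letters and not a measured binding site, and a missing match says only that the letters are not in this window.

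The genes with levels most like those of the chains were found by the root mean square difference from the mean chain profile over the 16 mice, each gene first centred on its own mean. They were *Mrc1*, the mannose receptor (0.174), *Serpinb6a*, an intracellular serine protease inhibitor (0.205), *Col14a1*, a fibril-associated collagen (0.224), *Mertk*, a receptor kinase for apoptotic cell uptake (0.230), and *Vcam1*, an adhesion molecule found on spleen macrophages (0.234). The chains themselves differed from their own mean by 0.0714 (*C1qa*), 0.0609 (*C1qb*) and 0.0372 (*C1qc*), and the median of the other genes was 1.13. Since the chain profile is dominated by the high CTLA4-Ig/EPO mice, this choice of genes fixes that they too were higher there, by 1.65 (*Mrc1*), 1.56 (*Serpinb6a*), 1.97 (*Col14a1*), 2.17 (*Mertk*) and 1.72 (*Vcam1*), so their p is not given.

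**Figure D3:**
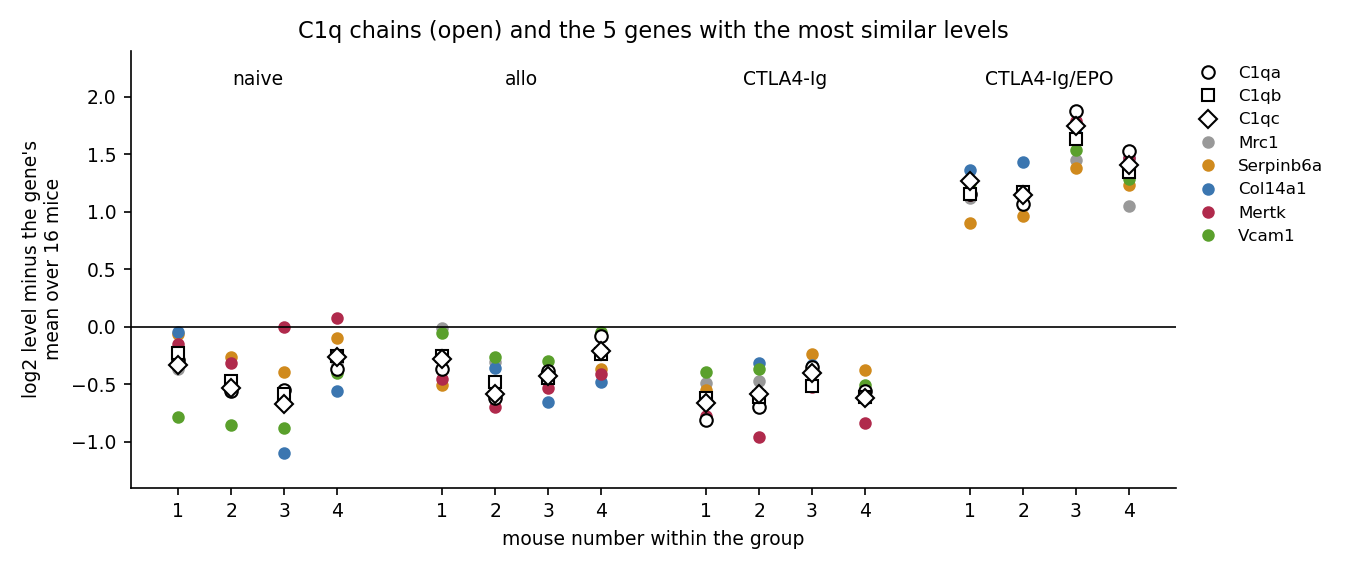
Levels of the 3 C1q chains (open symbols) and the 5 most similar genes (filled circles) in each mouse, as log2 level minus the gene's own mean over the 16 mice. All 8 genes are above their mean in the 4 CTLA4-Ig/EPO mice, and *Vcam1* lies below the chains in every naive mouse (-0.88 to -0.40).

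Of the 10 measured genes of the resident macrophage list, 9 were called higher and 0 lower with EPO added, under each of the 5 scalings. This list was written with earlier results of these data known, so the count is a description. *Mrc1*, *Mertk* and *Vcam1* on it are also among the genes chosen above for their likeness to the chains. Of all 734 genes, 167 were higher and 208 lower on the authors' scale. The median difference on that scale was 1.51 for the list beside -0.07 for all genes. *Siglec1*, a sialic acid receptor, was higher by 2.49 (SE 0.27), *Cd163*, the haptoglobin-hemoglobin receptor, by 1.67 (SE 0.17), *Cd68* by 1.36 (SE 0.11), *Adgre1*, which encodes F4/80, by 1.27 (SE 0.10), *Csf1r*, the receptor of the macrophage growth factor, by 1.16 (SE 0.13) and *Timd4*, a phosphatidylserine receptor, by 0.74 (SE 0.10). The exception was *Marco*, a scavenger receptor, with a difference of 0.02 (adjusted p = 0.961) that became -0.19 after median centring. In allo against naive mice the same list had 3 genes higher and 4 lower on the authors' scale (all genes, 87 and 429 of 734), and 6 higher and 0 lower with total scaling (334 and 132), so its counts moved with those of all genes. *Vcam1* (0.56), *Cd163* (0.63) and *Timd4* (0.85) were higher in allo mice under every scaling (1.65, 1.72 and 1.93 with total scaling), while *Cd68* was lower, by -1.27 on the authors' scale and -0.18 with total scaling, where it was not called. *Adgre1* fell by 0.87 on the authors' scale and was not called under any other, reading -0.14 after median centring, 0.03 with quantile normalization and 0.21 with total scaling. The part of macrophage number in the chain levels was not tested.

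Each chain was also compared with each macrophage gene within the same mouse, a ratio free of the scaling. These 60 tests were chosen after the values had been seen (exact permutation test, two-sided). The smallest raw p of this test, 0.0286, has an adjusted p of 0.0451. That adjusted value depends on how many of the 60 tests reached 0.0286. Since the chains varied together, the tests of different chains against the same macrophage gene are not independent. Adjustment within each chain alone was not done. With EPO added, the chains rose more than *Adgre1*, by 0.74 (*C1qa*), 0.64 (*C1qb*) and 0.69 (*C1qc*), more than *Cd68*, by 0.65, 0.55 and 0.60, and more than *Csf1r*, by 0.84, 0.75 and 0.80. They also rose more than *Timd4*, by 1.27, 1.18 and 1.23, and more than *Marco*, by 1.99, 1.90 and 1.94. In each of these the 4 CTLA4-Ig/EPO mice lay above the 4 CTLA4-Ig mice. With equally numbered mice of these groups taken as pairs, the lowest exact p that 4 pairs allow is 0.125, so a paired exact test could not have called any of these ratios. Against *Mertk* the chains moved by -0.16, -0.25 and -0.20, of which *C1qb* passed unpaired (adjusted p = 0.0451, exact). Against *Vcam1* they moved by 0.29, 0.20 and 0.24 and against *Mrc1* by 0.35, 0.26 and 0.31, of which *C1qb* and *C1qc* passed unpaired in each case. Paired by number, each chain, *C1qa* included, was higher relative to both genes in 4 of 4 pairs (exact paired p = 0.125). Against *Cd163* (0.34, 0.25 and 0.30) and *Siglec1* (-0.48, -0.57 and -0.52) the groups overlapped, although each chain was lower relative to *Siglec1* in 4 of 4 pairs (exact paired p = 0.125).

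In allo against naive mice the same ratios went in both directions. The chains rose relative to *Cd68* by 1.34, 1.29 and 1.34, to *Csf1r* by 1.07, 1.02 and 1.06, to *Adgre1* by 0.95, 0.90 and 0.95 and to *Mertk* by 0.50, 0.45 and 0.50 (*C1qa*, *C1qb* and *C1qc* in turn; log2). They fell relative to *Vcam1*, by differences of -0.49, -0.54 and -0.49, and to *Timd4*, by -0.77, -0.82 and -0.78. All of these passed (adjusted p = 0.0451, exact), and those against *Cd163*, *Mrc1*, *Marco* and *Siglec1* did not. Whether chains rose or fell in allo mice beside macrophage genes thus differed with the gene set beside them.

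**Figure D4:**
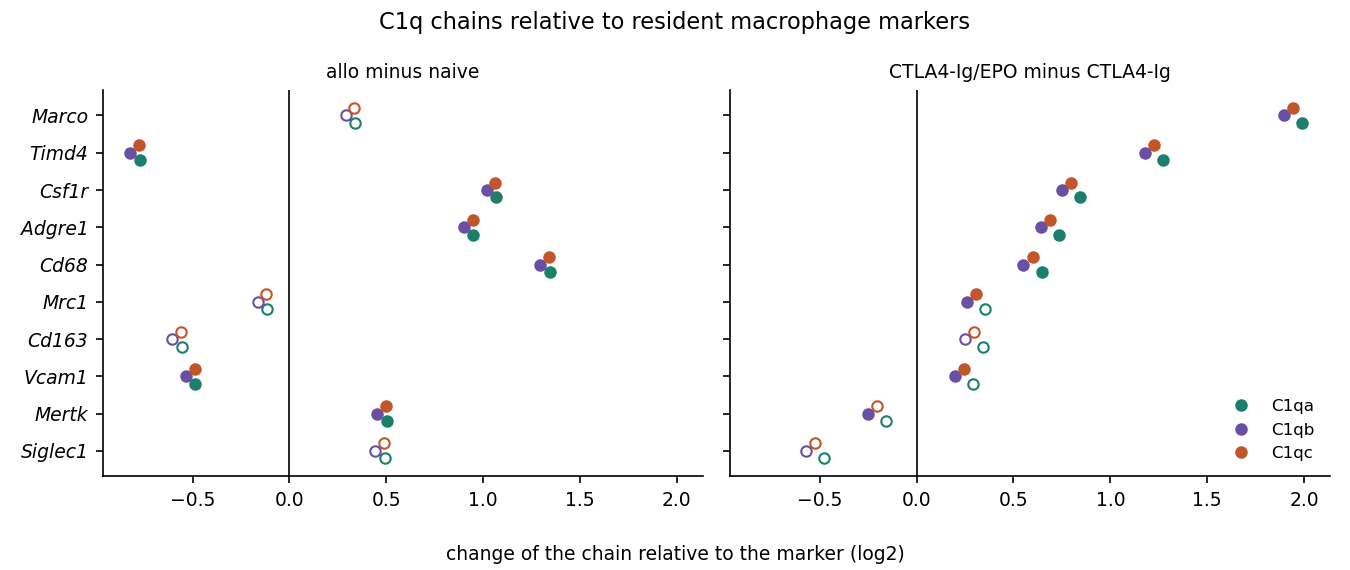
Change of each C1q chain relative to each of 10 resident macrophage genes within a mouse (log2), from naive to allo mice and from CTLA4-Ig to CTLA4-Ig/EPO mice; filled points mark ratios of which the groups of 4 mice do not overlap. With EPO the chains lie highest above *Marco* (1.90 to 1.99) and lowest beside *Siglec1* (-0.57 to -0.48), and in allo mice they lie below *Timd4* and above *Cd68*.

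Of the classical pathway's other initiating genes, those of the C1r and C1s proteases that C1q carries, none is among the genes analysed here; of 50 other genes on lists of complement components, receptors, regulators and C1q partners, 10 were measured, none of them a regulator. With EPO added to CTLA4-Ig, 6 of the 10 were called higher and 1 lower (5 to 8 higher and 1 lower under the other scalings), where 22.8% of all genes were higher and 208 of 734 lower, with a median of 0.62 beside -0.07 for all genes. *Fcnb*, a ficolin that starts the lectin pathway, was higher by 2.56 (SE 0.38). *C3*, the component on which all complement pathways converge, was higher by 1.22 (SE 0.24) and *C4a*, a gene of the C4 family, by 1.41 (SE 0.31). *C4b*, the other C4 gene on the list, was not measured, so the rise of *C4a* does not show the C4 step of the classical pathway. *Hc*, which encodes C5, read -0.34 (SE 0.39, limma adjusted p = 0.500). Recovered counts in CTLA4-Ig mice were low for *Hc* (6 to 15), *Fcnb* (15 to 39) and *C4a* (34 to 54). In CTLA4-Ig/EPO mice they were 6 to 16, 84 to 208 and 79 to 151.

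Among receptors, *C3ar1*, for the C3a peptide, was higher by 1.60 (SE 0.18). *C5ar1*, for C5a, was higher by 0.65 (SE 0.22, adjusted p = 0.0224), a call lost after median centring (adjusted p = 0.0549) and without CTLA4-Ig mouse 3 (0.0649), CTLA4-Ig mouse 4 (0.0714) or CTLA4-Ig/EPO mouse 2 (0.0746). *Itgam* and *Itgb2*, whose products form the receptor for C3 fragments CR3, read 0.33 (SE 0.16, adjusted p = 0.0881) and 0.26 (SE 0.11, adjusted p = 0.0668). *Itgb2* was called in limma with the mouse number as a block (adjusted p = 0.0428) and *Itgam* with quantile (0.0178) or total scaling (0.0402). *Itgax*, which encodes another partner of the *Itgb2* product, was lower by a difference of -0.93 (SE 0.17). *Calr*, which encodes calreticulin, a partner of the C1q stalks on phagocytes, was higher by 0.58 (SE 0.10).

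The other complement genes were also compared with naive mice. In allo against naive mice 8 of the 10 were called lower and 0 higher on the authors' scale, beside 429 lower and 87 higher of all 734 genes, and 4 lower and 2 higher with total scaling, beside 132 and 334. *C5ar1* fell by 4.23 (3.14 with total scaling), *Fcnb* by 3.27 (2.19) and *C3* by 3.09 (2.00), while *Itgb2* fell by 1.31 and was not called with total scaling (-0.23). In CTLA4-Ig/EPO against naive mice, in which the chains rose, 1 of the 10 was higher and 6 were lower, close to the 67 and 453 of all 734 genes, against 4 and 3 with total scaling (all genes, 340 and 90). The higher one was *C4a*, at 1.30 (SE 0.31; 2.49 with total scaling), while *C3* fell by 1.99 (SE 0.24; 0.80 with total scaling) and *C5ar1* by 3.44 (SE 0.22; 2.25). *C4a* was read at only 15 to 24 counts in naive mice. *C3* and *C5ar1* are also expressed by neutrophils, whose 11 measured genes were all lower in allo than in naive mice. *Fcnb* averaged 7.55, 4.28, 4.14 and 6.70 in naive, allo, CTLA4-Ig and CTLA4-Ig/EPO mice (log2). On the neutrophil list, *Elane* averaged 9.80, 6.71, 6.42 and 8.95 in that order, and *Csf3r* 12.52, 7.45, 7.78 and 8.19. The part of neutrophils in the levels of *C3*, *C5ar1* and *Fcnb* was not tested.

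**Figure D5:**
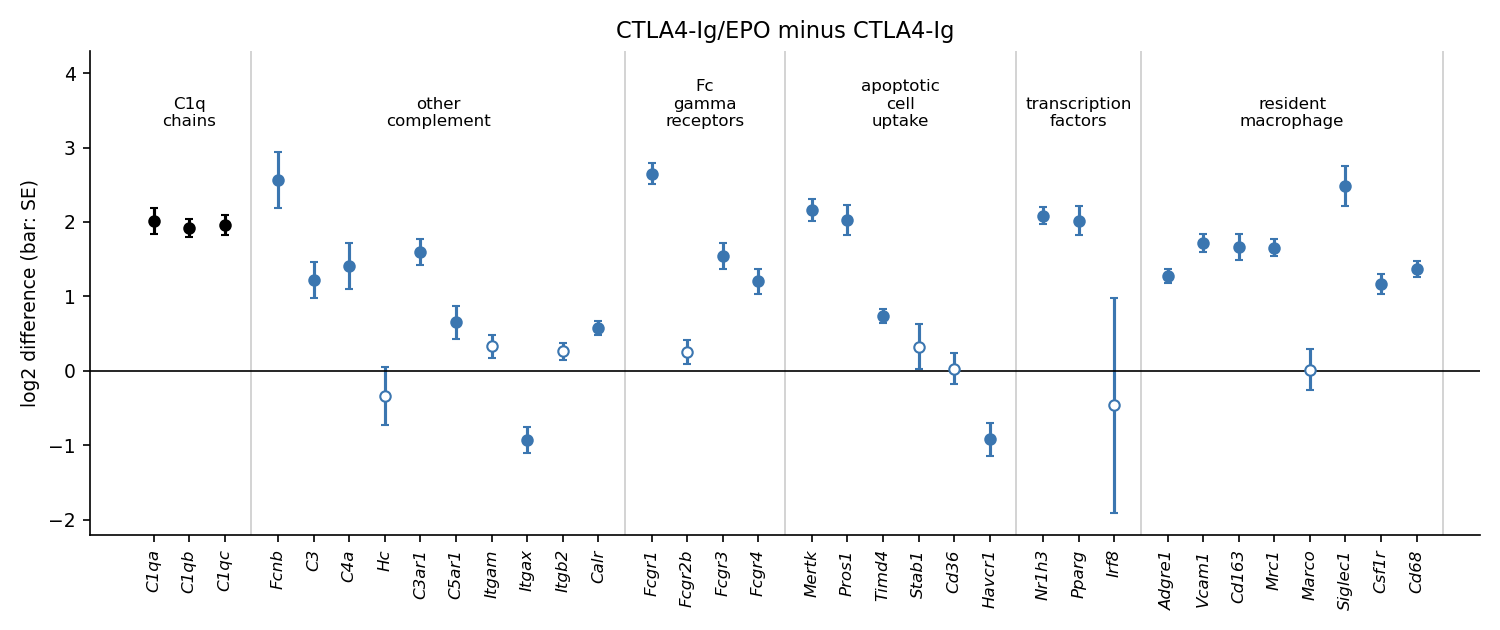
Differences between CTLA4-Ig/EPO and CTLA4-Ig mice (log2, points, with SE bars) for the C1q chains and the measured genes of the lists; filled points have an adjusted p below 0.05, and *Mertk* and *Timd4*, which are also on the macrophage list, are drawn once. The chains lie at 1.91 to 2.01, near *Mertk*, *Pros1*, *Nr1h3* and *Pparg*, while *Itgax* and *Havcr1* are lower.

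Fc gamma receptors bind the same immune complexes as C1q. With EPO added, 3 of the 4 measured were called higher (22.8% of all genes; median 1.38 beside -0.07), *Fcgr1* by 2.65 (SE 0.14), *Fcgr3* by 1.55 (SE 0.17) and *Fcgr4* by 1.20 (SE 0.17). *Fcgr2b*, the inhibitory receptor of the family, read 0.26 (SE 0.16, adjusted p = 0.195) and was called with the mouse number as a block (adjusted p = 0.0285). *Fcgr1* differs from the chains in its course: it fell by 2.17 from naive to allo mice (1.08 with total scaling) and read 0.18 (adjusted p = 0.261) in CTLA4-Ig/EPO against naive mice on the authors' scale, a call gained under each other scaling (0.70 after median centring, 1.37 with total scaling).

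Genes of apoptotic cell uptake, a process that C1q also serves, were 6 of 14 measured. With EPO, *Mertk*, its bridging ligand *Pros1* (2.03, SE 0.20) and *Timd4* were called higher and *Havcr1*, another phosphatidylserine receptor, lower (-0.92, SE 0.22), beside 167 and 208 of all 734 genes, while *Stab1* (0.32, limma adjusted p = 0.410) and *Cd36* (0.03, limma adjusted p = 0.923, and -0.17 after median centring) were not called. *Havcr1* was read at only 12 to 21 counts in CTLA4-Ig and 8 to 12 in CTLA4-Ig/EPO mice, and *Stab1* at 11 to 19 and 17 to 25.

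Of 8 transcription factors tied to C1q expression or to macrophage identity, 3 were measured, and with EPO added 2 were called higher and 0 lower (all genes, 167 and 208 of 734). The nuclear receptor genes *Nr1h3* (LXR alpha) and *Pparg* were higher by 2.08 (SE 0.12, adjusted p = 1.01e-08) and 2.02 (SE 0.20, adjusted p = 8.58e-07) in limma. *Irf8* read -0.46 (adjusted p = 0.809); a naive mouse with a recovered count of 1 widened the shared error of this gene, and in a fit of the 2 groups alone it was called lower (adjusted p = 0.00752). In CTLA4-Ig/EPO against naive mice *Nr1h3* was higher by 1.56 (SE 0.12; 2.75 with total scaling).

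Genes of other cell types also differed between CTLA4-Ig/EPO and CTLA4-Ig mice, in which 167 of all 734 genes were higher (22.8%) and 208 lower; with lists this short, several of the counts below lie near those shares. Classical monocyte genes, 5 of 8 measured and led by *Chil3*, had 3 called higher and 1 lower and held 1.00% ± 0.0803 and 1.91% ± 0.348 of counts in CTLA4-Ig and CTLA4-Ig/EPO mice. Neutrophil genes had 7 of 11 higher and 0 lower, and eosinophil genes, 4 of 6 measured and led by *Prg2*, 2 higher and 1 lower, at 0.0318% ± 0.0077 and 0.350% ± 0.0686. Dendritic cell genes, 7 of 10 measured and led by *Ccr7*, had 1 higher and 4 lower, at 1.05% ± 0.109 and 0.447% ± 0.0410. The lower ones were *Ccr7*, *Irf4*, *Flt3* and *Itgax*, and the higher one was *Xcr1*, at mean log2 levels of 4.54 and 5.23. *Clec9a* read 6.74 and 6.53 and *Batf3* 6.68 and 6.59, so the summed share does not stand for every gene of the list. T cell genes, 3 of 8 measured and led by *Cd28*, were 3 lower, at 0.198% ± 0.0107 and 0.0670% ± 0.0117. NK cell genes, 3 of 6 and led by *Gzma*, were 3 lower (1 with total scaling), at 1.85% ± 0.302 and 1.17% ± 0.156, and the B cell gene *Ms4a1*, 1 of 7, was lower, at 0.462% ± 0.0261 and 0.296% ± 0.0536 (mean ± SD, n = 4). Of 7 erythroid genes 0 were measured, and the lowest recovered count of a measured cell type marker was 8. The part of these cell types in the rise of the chains was not tested.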

How the data were processed

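Gene expression of CD11b+ spleen cells from 16 mice was read on the NanoString nCounter Myeloid Innate Immunity panel. The authors imported raw counts into limma and deposited normalized log2 values, 1 column per mouse; what the factor of each mouse was computed from is not given in the sources used here. Whole counts were recovered from each value's distance to the lowest of its mouse: 100.0% were whole within 0.001. The lowest, 1, may stand for 0.

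The deposited log2 values were fitted with limma 3.58.1 (R 4.3.3), 1 mean per group over all 16 mice, 4 comparisons, moderated by eBayes, two-sided, with Benjamini-Hochberg adjustment over 734 genes and a threshold of 0.05. The fit was tested on simulated data. Chain pairs were compared by exact permutation in Python 3.11.15. Alternatives were unadjusted p, a fit of 2 groups, trended and robust moderation, other scalings, limma-voom on recovered counts, leaving out the lowest 25% of genes, the mouse number as a block and leaving out each mouse. Deviations of equally numbered CTLA4-Ig and CTLA4-Ig/EPO mice correlated over all genes (r = 0.156, 0.184, 0.174 and 0.143), so numbers were taken as pairing there, from the values alone. In CTLA4-Ig against allo mice r was 0.293, 0.0156, 0.189 and 0.0406. Numbers were not taken as pairing there or in the comparisons with naive mice. The fit with the mouse number as a block, however, used the numbers of all 16 mice. Named genes were the chains, the genes of the pathway and cell type lists, and the 5 genes most like the chains. Members and lists were chosen with earlier results of these data known. Replicates are separate mice per the labels. Gene order and promoters came from RefSeq (GRCm38.p6).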

Additional observations from a re-analysis of the deposited data

Results flagged for a closer look

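Of 28 sets of 4 mice looked at (each chain, each pair of chains and the summed share in each group), 1 held a mouse far from the others. In CTLA4-Ig mice *C1qb* read 10.15, 10.16 and 10.17 in mice 1, 2 and 4 and 10.26 in mouse 3, a gap of 0.891 of the group's range (past the 5% critical value of Dixon's test). The whole range is small, and chance alone flags about 1 in 20 such sets.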

How the results depend on the processing

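The rise of the chains in CTLA4-Ig/EPO mice, against CTLA4-Ig or naive mice, kept its direction and call in every setting, as did the absence of a call on any chain in CTLA4-Ig against allo mice. For allo against naive mice, the differences of *C1qa*, *C1qb* and *C1qc* became 0.81, 0.76 and 0.80 with median centring, 0.92, 0.92 and 0.94 with quantile normalization, 1.16, 1.11 and 1.16 with total counts and 1.16, 1.11 and 1.16 with limma-voom, all called. Median centring and total counts move all genes of a mouse alike; quantile normalization does not, and it also changed the chains' distance from the median gene.

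The log2 share of counts of the summed chains differed by 1.14 (allo minus naive), 2.06 (CTLA4-Ig/EPO minus CTLA4-Ig) and 2.99 (CTLA4-Ig/EPO minus naive). Without the 10 most abundant genes in the denominator the first was 0.89 and the third 2.62; against the median count they were 0.79, 1.75 and 2.32. In CTLA4-Ig against allo mice 70 genes were called at an unadjusted p below 0.05, and leaving out 1 mouse gave 0 to 1 genes (1 without allo mouse 1 or 3).

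Leaving out each mouse in turn, allo minus naive ran from -0.0167 to 0.164 (*C1qa*), -0.0386 to 0.0811 (*C1qb*) and -0.0008 to 0.143 (*C1qc*), *C1qa* minus *C1qb* from -0.0055 to 0.0919 and *C1qa* minus *C1qc* from -0.0359 to 0.0429. In CTLA4-Ig minus allo *C1qa* minus *C1qb* ran from -0.0637 to 0.0514. In CTLA4-Ig/EPO minus naive *C1qa* minus *C1qc* ran from -0.038 to 0.0447 and *C1qb* minus *C1qc* from -0.17 to -0.12 (lowest exact permutation p 0.0286, without CTLA4-Ig/EPO mouse 2).

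Directions also turned for *Adgre1*, allo minus naive (0.0333 with quantile normalization, 0.21 with total counts, 0.21 with voom), and, with EPO added, for *Cd36* (-0.17 with median centring; -0.11 to 0.15 leaving out a mouse) and *Marco* (-0.19; -0.18 to 0.24). *Itgb2* was also called with EPO under trended and robust moderation, voom, without the lowest 25% of genes and without CTLA4-Ig/EPO mouse 1, and *Itgam* under voom and without that mouse. The cause was not tested.

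With the mouse number as a replicate block, the chains had adjusted p values of 7.2e-07, 2.62e-07 and 4.39e-07 (limma) for EPO added to CTLA4-Ig, and of the other genes whose difference is printed, only *Itgb2* and *Fcgr2b* changed their call; the remaining genes of the cell type lists were not compared under the block. For the ratios of chains to macrophage genes with EPO, 4 pairs allow no exact p below 0.125, so the exact paired test cannot call them. This is a limit of the exact test, and the differences are the same. With 4 mice a group, a mixed cell population and a scaling that differs between naive and other mice, small differences of the chains cannot be resolved and their source cells were not identified.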
